A study of Homo sapiens with 4 samples.

Results

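A set of 10 genes, grouped here as feedback genes of the ERK pathway, was followed after exposure to lipopolysaccharide (LPS) of Helicobacter pylori. The cells were AGS, a line derived from a human gastric adenocarcinoma. The members are the MAP kinase phosphatase genes DUSP1, DUSP4, DUSP5, DUSP6 and DUSP10, the Sprouty genes SPRY1, SPRY2 and SPRY4, and ERRFI1 and PHLDA1. They were chosen by name, with earlier results of these data known. Every probe set that the array's annotation gives to exactly 1 of these symbols was taken. This made 23 probe sets of 54675 on the array and 10 genes of 19775. Untreated cells had received fresh medium and treated cells medium with 10 µg/ml of the LPS, and RNA of both was harvested after 8 h. There were 2 arrays per group and 4 in all, from experiments that the submitters describe as independent, and the labels name no genetic change in either group. AGS is a single tumour line, so neither group holds the immune or stromal cells of gastric tissue.

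The ERK pathway carries signals from receptor tyrosine kinases through RAS, RAF and MEK to the kinases ERK1 and ERK2, which switch on a set of early genes. Several of these genes encode brakes on the same pathway: dual-specificity phosphatases remove the activating phosphates from ERK, p38 or JNK, and Sprouty proteins restrain the signal on its way from the receptors to ERK. Because their transcripts follow ERK activity, DUSP6, SPRY2, SPRY4 and PHLDA1 are widely read as reporters of pathway output. The question put to the data is whether the transcripts of the members differed after 8 h of LPS exposure. No other time was measured, so an earlier change that had passed by then would not be seen.

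None of the 10 feedback genes passed the test for a change with LPS. SPRY2 had the largest difference, 0.812-fold with LPS relative to untreated cells, and the other members lay between 0.889-fold and 1.08-fold on every probe set. With limma's moderated test, 0 of the 23 member probe sets passed an adjusted p of 0.05, and the same held for all 54613 probe sets tested (0.0% called higher and 0.0% lower, adjusted p = 1 for each member). At an unadjusted p under 0.05 there were 0 members, against 1.29% of all probe sets higher and 1.31% lower. For 22 of the 23 member probe sets the 95% interval of the difference lay within 1.5-fold in both directions, as it did for 90.5% of all probe sets. SPRY2 was the exception.

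Early genes of this kind are switched on through short promoter elements. DUSP1 is a textbook target of CREB, a factor that binds the cAMP response element (CRE). RefSeq promoter windows (GRCh38.p14) were found for 8 of the 10 genes, in 12 windows, and the 250 bases before each start were searched on both strands. The full element TGACGTCA occurred in the DUSP1 window and in none of the others, against 1.65% of 35114 windows of all genes. Its core TGACG, which the full element contains, occurred in 3 of the 12 member windows, those of DUSP1 and SPRY4 and 1 of 3 of SPRY2, against 21.2% of all windows, a like share. The DUSP1 window is printed because it alone of the member windows has the full element, and the others to show where the core lies in SPRY2 and SPRY4. Capitals mark the core or the full element on either strand, and each sequence runs 5′ to 3′ in the direction of its gene. They lie at chr5:172771196-172771445, chr13:80341127-80341376 and chr5:142324248-142324497, all on the minus strand.
DUSP1: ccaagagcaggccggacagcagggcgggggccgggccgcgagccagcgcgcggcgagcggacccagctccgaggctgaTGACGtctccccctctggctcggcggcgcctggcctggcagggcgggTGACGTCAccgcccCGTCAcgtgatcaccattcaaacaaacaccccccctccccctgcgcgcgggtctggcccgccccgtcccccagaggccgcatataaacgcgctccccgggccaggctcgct
SPRY2: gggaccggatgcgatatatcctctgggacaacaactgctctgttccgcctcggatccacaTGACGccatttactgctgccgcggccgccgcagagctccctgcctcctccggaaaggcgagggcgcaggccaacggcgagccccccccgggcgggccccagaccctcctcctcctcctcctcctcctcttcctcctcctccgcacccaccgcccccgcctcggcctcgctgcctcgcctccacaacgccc
SPRY4: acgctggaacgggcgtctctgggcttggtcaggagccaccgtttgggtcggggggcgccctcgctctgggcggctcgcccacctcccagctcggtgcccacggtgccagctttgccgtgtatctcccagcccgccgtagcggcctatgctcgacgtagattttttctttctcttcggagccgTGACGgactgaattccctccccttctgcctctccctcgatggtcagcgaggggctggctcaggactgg

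In DUSP1 the full element lies 125 to 118 bases before the start, with further cores at 172 to 168 and at 111 to 107. The core is 190 to 186 bases before the start in SPRY2 and 68 to 64 in SPRY4. The AP-1 element TGANTCA (6.57% of all windows), the CArG box bound by serum response factor (1.16%) and the NF-kB element (9.96%) were found in no member window. The ETS element CCGGAAG (8.52%) occurred for SPRY1, and the EGR element GCGNGGGCG (8.41%) for SPRY1, SPRY2 and SPRY4. Such matches describe letters in these windows and are not evidence of binding.

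SPRY2 encodes a Sprouty protein that restrains signalling from growth factor receptors to RAS. Its only probe set stood at log2 values of 9.01 and 8.80 on the untreated arrays (replicates 1 and 2) and 8.58 and 8.63 on the LPS arrays. Both treated arrays lay below both untreated ones, and the untreated arrays were 0.21 apart. The group means were 8.91 ± 0.15 and 8.61 ± 0.04 (SD, n = 2), a difference of -0.30 ± 0.12 (SE). The ratio of 0.812 had a 95% interval of 0.659 to 1.00, with an unadjusted p of 0.0506 and an adjusted p of 1 (limma). Between the arrays numbered 1 the difference was -0.43, and between those numbered 2 it was -0.17. Over 11 alternative settings it ran from -0.40 to -0.20, the unadjusted p from 0.0287 to 0.296, under 0.05 in 5 of them, and the adjusted p from 0.685 to 1.

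The other Sprouty genes differed less. SPRY1, a close relative of SPRY2, read 8.61 and 8.54 in untreated cells and 8.49 and 8.45 with LPS on its brighter probe set. The treated arrays again lay below the untreated ones, by a mean of -0.11 ± 0.11 (SE). Its dimmer probe set, below the median level of all probe sets (6.33), read 6.11 and 6.21 against 6.18 and 5.99, and its groups overlapped. SPRY4 was the only member whose brightest probe set lay above 0. It read 9.15 and 9.27 in untreated cells and 9.27 and 9.33 with LPS, where the upper untreated array nearly met the lower treated one. The difference was 0.09 ± 0.11 (SE), and the interval of its ratio ran from 0.885 to 1.28.

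**Figure D1:**
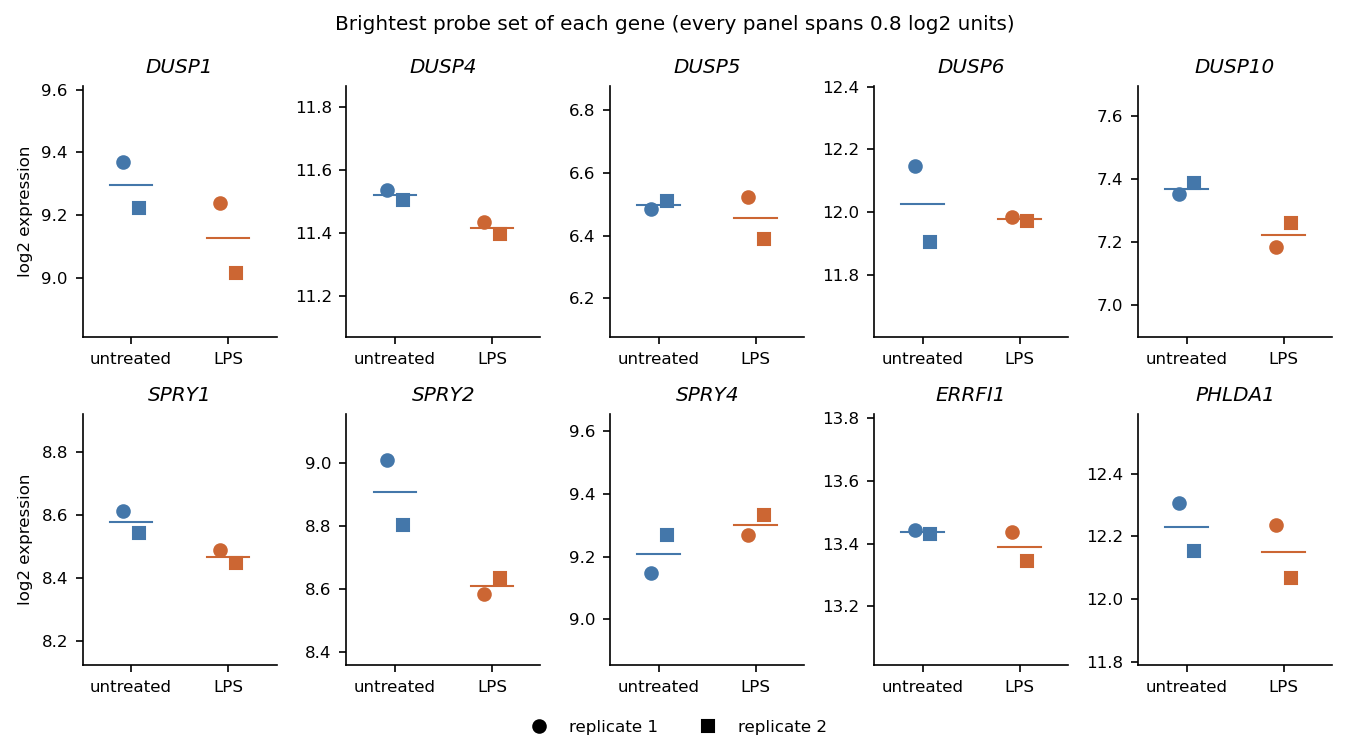
Log2 expression of the brightest probe set of each of the 10 genes on every array (circles replicate 1, squares replicate 2, lines group means), with all panels spanning the same 0.8 log2 units. The treated arrays of SPRY2, SPRY1, DUSP4 and DUSP10 lie below both untreated arrays, those of SPRY4 lie above, and the other 5 genes overlap.

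DUSP6 encodes a cytoplasmic phosphatase specific for ERK, and it is the member most often used as a readout of ERK activity. The brightest of its 3 probe sets (208891_at) read 12.15 and 11.90 in untreated cells and 11.98 and 11.97 with LPS. Here the treated arrays fell between the untreated ones, and the difference was -0.05 ± 0.10 (SE). The second probe set (208892_s_at) read 11.70 and 11.45 against 11.79 and 11.43, a difference of 0.04, and 208893_s_at read 10.55 and 10.17 against 10.67 and 10.22, a difference of 0.08. On every DUSP6 probe set the arrays numbered 1 were brighter than those numbered 2 in both groups, by up to 0.44, which is more than any LPS difference of the gene. The sign for DUSP6 therefore depended on what was read: the difference was 0.07 without untreated replicate 1 and 0.02 for the mean of its probe sets.

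DUSP5, which encodes a nuclear phosphatase also specific for ERK, was dim and close to the median level of all probe sets. It read 6.48 and 6.51 in untreated cells and 6.52 and 6.39 with LPS, with overlapping groups and a difference of -0.04 ± 0.12 (SE). Without LPS replicate 2 the sign turned, to 0.03. DUSP4, a nuclear phosphatase of ERK and JNK, read 11.54 and 11.50 in untreated cells and 11.44 and 11.40 with LPS on its brightest probe set (204015_s_at). That made -0.10 ± 0.08 (SE) with no overlap, and the pairs of arrays with the same number differed by -0.10 and -0.11. The second probe set of DUSP4 (226034_at) read 10.83 and 10.82 against 10.76 and 10.78, also without overlap, a difference of -0.05. On 204014_at, by contrast, LPS replicate 1 stood highest at 11.00, above 10.77 and 10.59 in untreated cells and 10.54 on LPS replicate 2, and the mean difference was 0.09 ± 0.17.

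DUSP1, an early-response phosphatase that acts on p38 and JNK as well as ERK, read 9.37 and 9.22 in untreated cells and 9.24 and 9.02 with LPS on its brightest probe set (201041_s_at). The groups overlapped by a narrow margin, and the difference of -0.17 ± 0.13 (SE) was exceeded by the gap of 0.22 between the treated arrays. Between arrays of the same number the difference was -0.13 and -0.21. The interval of its ratio ran from 0.716 to 1.10. Its dimmer probe sets did not follow it. On 226578_s_at the treated arrays were 6.78 and 7.26, on either side of 7.06 and 7.01. On 201044_x_at, the dimmest, they were 6.85 and 6.83, both above the untreated values of 6.80 and 6.67. All 3 DUSP1 probe sets carry a name ending that marks possible signal from other transcripts. DUSP10, a phosphatase of p38 and JNK, read 7.35 and 7.39 in untreated cells and 7.19 and 7.26 with LPS, without overlap and with a difference of -0.15 ± 0.11 (SE). Its dimmer probe set lay below the median level of all probe sets and differed by -0.09, with overlapping groups.

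ERRFI1 encodes a protein that binds the EGF receptor and blocks its kinase. It was bright, and its values of 13.44 and 13.43 in untreated cells and 13.44 and 13.34 with LPS made overlapping groups. It had the narrowest interval of the members, a ratio of 0.968 between 0.870 and 1.08. PHLDA1, an early ERK output gene with a pleckstrin homology-like domain, was measured by 6 probe sets, of which 2 lay below 0 and 4 above. The brightest (217996_at) read 12.31 and 12.15 in untreated cells and 12.24 and 12.07 with LPS. The arrays numbered 1 were the brighter in both groups, and the difference was -0.08 ± 0.10 (SE). On 217998_at, 217999_s_at and 225842_at the order turned, and the array numbered 1 was the brighter in untreated cells but the dimmer with LPS. The 6 differences ran from -0.08 to 0.07. For PHLDA1 the sign turned to 0.01 without LPS replicate 2 and for the mean of its probe sets.

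**Figure D2:**
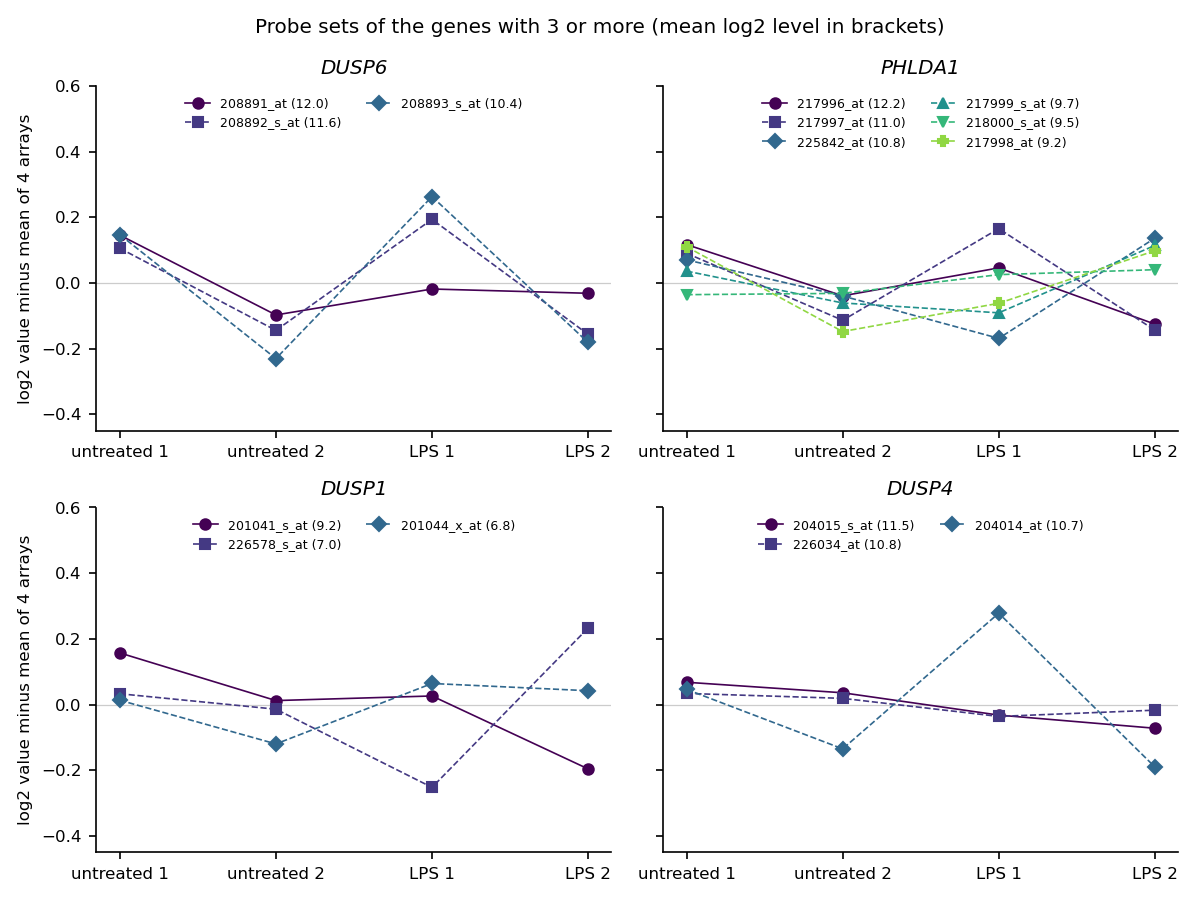
Log2 values on each array, centred on the mean of the 4 arrays, for every probe set of DUSP6, PHLDA1, DUSP1 and DUSP4, where lines only join the points of 1 probe set and the bracketed numbers are mean log2 levels. Probe sets of the same gene part company on the LPS arrays, most clearly 204014_at of DUSP4 and 226578_s_at of DUSP1.

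Probe sets of a gene were read on the same arrays and are not replicates, so the members were also counted by gene. Of the 10 brightest probe sets 9 lay below 0, with a median difference of -0.09, where 43.5% of all genes lay below 0 and the median over all genes was 0.02. Over the 23 probe sets the same count was 14, with a median of -0.04, against 44.4% and 0.015 of all probe sets. Of the 10 genes 4 were lower without overlap of the arrays and 1 was higher, beside 11.7% and 17.9% of all genes. By probe set it was 5 lower and 3 higher, beside 11.9% and 17.6%. These counts are descriptions, since the members were chosen with earlier results of these data known. In 6 of the 6 genes with several probe sets the brightest had the lowest difference, and averaging all probe sets of each gene moved the median of the members to -0.03.

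**Figure D3:**
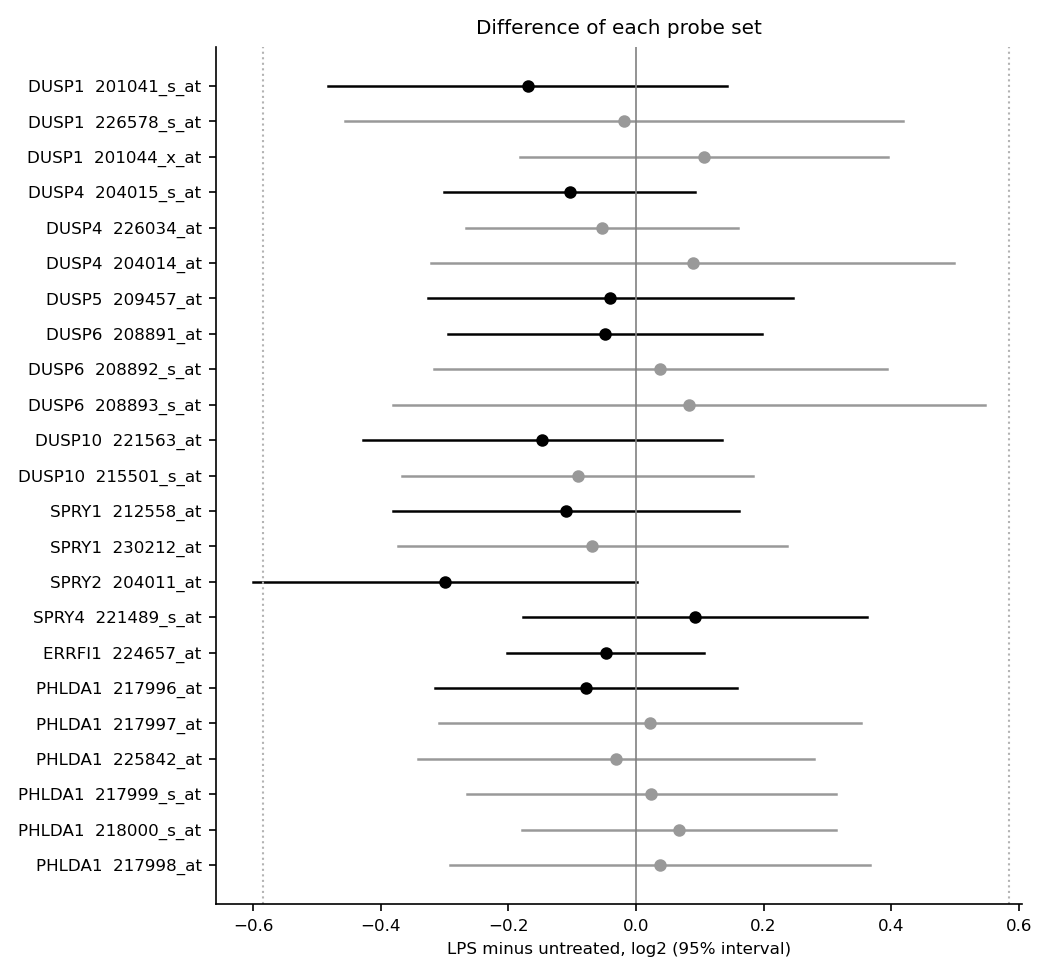
Difference between LPS-treated and untreated cells (log2, points) with its 95% interval (lines) for all 23 probe sets, black for the brightest of each gene and grey for the others, with dotted lines at 1.5-fold. Every interval but that of SPRY2 stays within the dotted lines, and all 23 include 0.

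The spread between replicates was as large as the difference with LPS for most members. On 17 of the 23 probe sets the larger gap between 2 arrays of the same group exceeded the LPS difference, as it did on 81.0% of all probe sets. The exceptions were SPRY2, both non-overlapping probe sets of DUSP4, the brighter probe sets of SPRY1 and DUSP10, and 218000_s_at of PHLDA1. These gaps include any difference between replicate numbers. Between arrays of the same number, 12 of the 23 probe sets had the same sign in both pairs, beside 54.7% of all probe sets. By gene it was 8 of 10, beside 56.0% of all genes. The array numbered 1 was brighter than that numbered 2 in both groups on 11 of the 23 member probe sets and dimmer in both on 3. Over all probe sets these shares were 28.1% and 36.5%, and over those at or above the median level 36.1% and 34.0%. The poly-A control transcripts followed the replicate number too, at 8.67 and 8.15 on the arrays numbered 1 (untreated and LPS) and 7.62 and 7.53 on those numbered 2. Further apart were the array's controls for 18S rRNA, at 10.07 and 9.89 against 8.12 and 7.98, in the same order. Of the hybridisation controls 9 probe sets were read, and their mean had this order too. It was 9.88 and 10.57 on the arrays numbered 1 (untreated and LPS) against 9.68 and 9.76. On these hybridisation controls LPS replicate 1 stood furthest from the other arrays. The part of these controls in the values of the feedback genes was not tested.

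**Figure D4:**
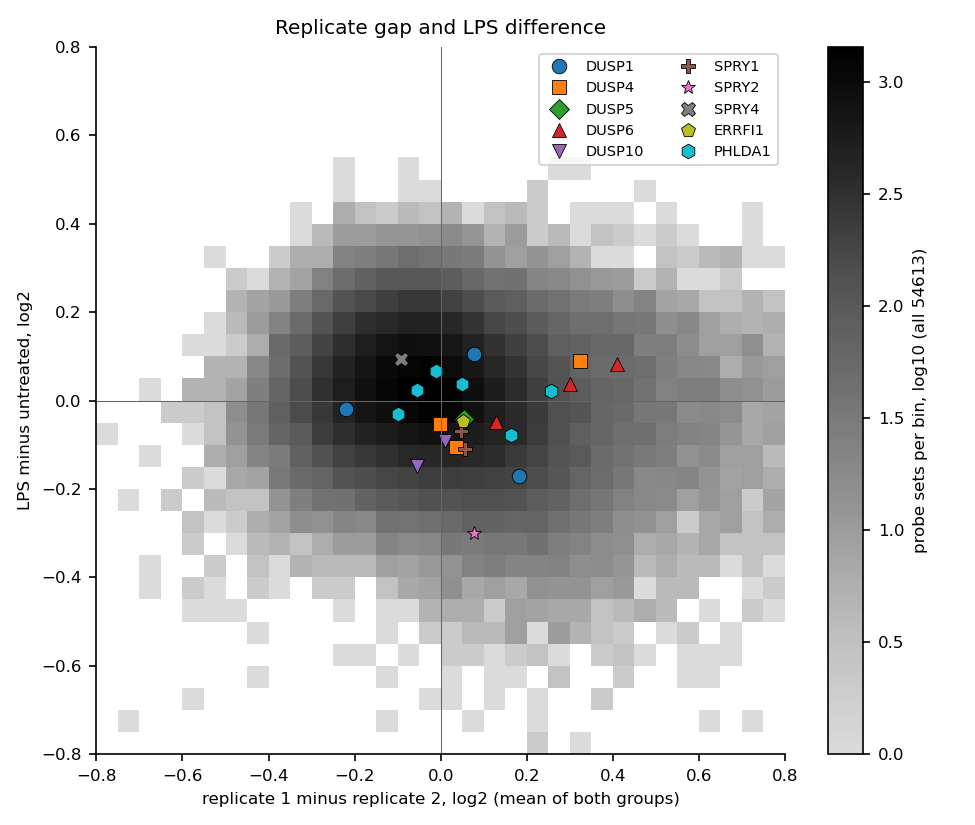
LPS minus untreated (vertical, log2) against replicate 1 minus replicate 2 averaged over both groups (horizontal, log2), for the 23 member probe sets (symbols) over the density of all 54613 probe sets (grey, log scale), shown from -0.8 to 0.8. DUSP6 lies to the right, up to a gap of 0.41, at LPS differences near 0, and SPRY2 lies lowest.

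Genes with the most similar pattern over the 4 arrays were sought for the reporters DUSP6, SPRY2 and SPRY4, by the root mean square distance of centred log2 values among 9887 genes at or above the median. For SPRY2 the nearest were PSMC6 (0.0091), ZBTB38 (0.013) and CCPG1 (0.014), and 688 genes lay within 0.1. DUSP6 had SH3YL1, SLU7 and ZNF330 as its nearest, with 2934 genes within that distance. SPRY4 was nearest to TANGO6, SFTPC and ACP2, with 4510. The distance from a flat profile was itself only 0.0897 for DUSP6 and 0.067 for SPRY4, under 0.1, so a gene that does not vary counts as near to either, while for SPRY2 it was 0.168.

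The rest of the pathway was read from lists of its parts, each gene by its brightest probe set, and 0 genes of any list passed the adjusted test. The other MAPK phosphatases and Sprouty relatives (12 of 12 measured) had a median of 0.03, with 3 lower and 3 higher without overlap, beside 11.7% and 17.9% of all genes. SPRED1, a Sprouty-related inhibitor of RAS signalling, read 11.15 and 10.95 in untreated cells and 10.87 and 10.78 with LPS. Its difference was -0.22 ± 0.11 (SE), and its other probe sets differed by -0.23 and -0.33, so that all 3 were below 0. DUSP9, another phosphatase of ERK, was dim at 5.59 and 5.53 against 5.68 and 5.89, a difference of 0.22 ± 0.12.

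For the ERK cascade kinases and scaffolds, 8 of 13 were measured, the median was 0.003 and every gene's groups overlapped. MAP2K2, which encodes the kinase MEK2, differed by 0.19 ± 0.14 (SE) and the ERK-activated kinase gene RPS6KA3 by -0.09 ± 0.11. The other probe sets of MAP2K2 differed by 0.15 and -0.16, and that of RPS6KA3 by -0.21. The JNK and p38 kinases (8 of 11) had a median of -0.01, also with overlap in each. The 2 genes with the largest statistics were MAPK8, a JNK gene, at -0.11 ± 0.12 and MAPK13, a p38 gene, at 0.07 ± 0.12. The other probe sets of MAPK8 ran from -0.136 to 0.205, on both sides of 0, and that of MAPK13 differed by 0.05. Genes not measured by a probe set of 1 symbol were not analysed here.

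Other genes switched on by ERK did not move as a group: of 16 measured among 17, 8 lay below 0 and 8 above, with a median of 0.01, 1 lower and 4 higher without overlap, beside the same 11.7% and 17.9% of all genes. EPHA4, an ephrin receptor gene, read 10.01 and 9.89 in untreated cells and 9.77 and 9.61 with LPS, a difference of -0.26 ± 0.11 (SE), while its other probe sets ran from -0.10 to 0.06. IER3, an early-response survival gene, read 12.31 and 12.17 against 12.44 and 12.40, a difference of 0.18 ± 0.08. EGR1, the early zinc-finger factor, was chosen after its values were seen, since it differed most in this list. It read 11.86 and 11.24 in untreated cells and 12.38 and 11.55 with LPS, overlapping, with a difference of 0.42 ± 0.31 and with both arrays numbered 1 above their partners. None of these passed (limma, adjusted p = 1 for each).

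The receptors and adaptors on which the brakes act (10 of 10) had a median of -0.002. SOS1, the exchange factor that loads RAS, read 9.98 and 9.79 in untreated cells and 10.25 and 10.30 with LPS on its brightest probe set. The difference was 0.39 ± 0.11 (SE), with an unadjusted p of 0.0122 and an adjusted p of 1 (limma). Of its other probe sets 3 differed by 0.32, 0.34 and 0.35 (unadjusted p of 0.0198, 0.0396 and 0.332 in the same fit), and the dimmest by -0.14. EGFR, the receptor that ERRFI1 blocks, read 11.39 and 11.26 against 11.73 and 11.38 on its brightest probe set, overlapping, and its 9 probe sets ran from -0.09 to 0.23.

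**Figure D5:**
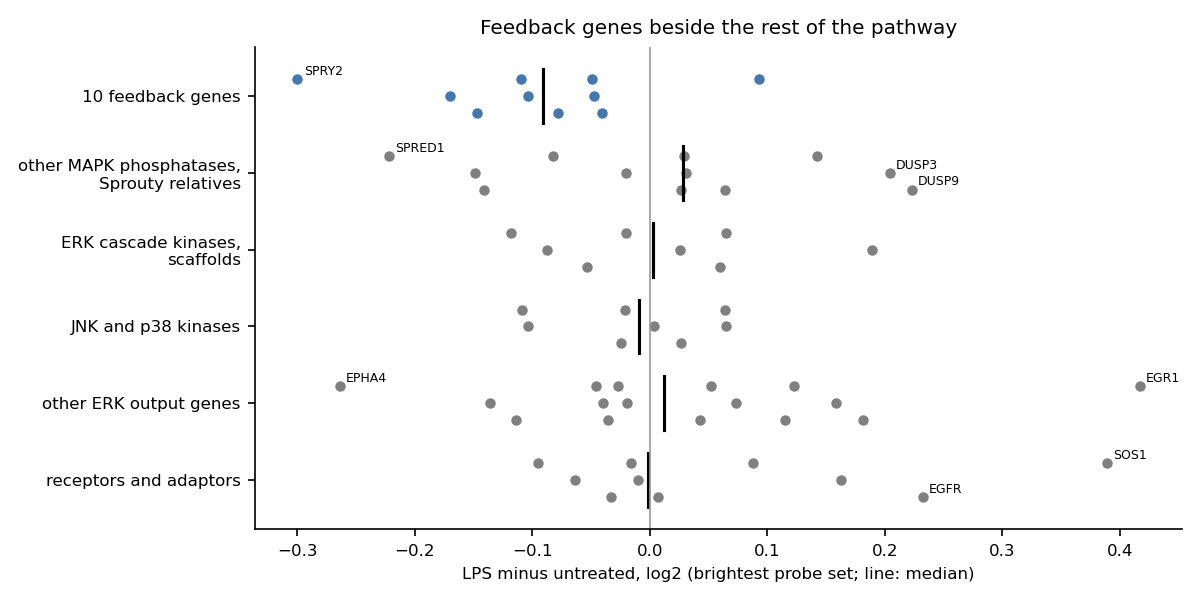
LPS minus untreated (log2) of the brightest probe set of each gene (points) with the list median (vertical lines), for the 10 feedback genes and 5 other lists of the pathway. The feedback genes have a median of -0.09, and the other lists have medians between -0.01 and 0.03.

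The labelled cell type was checked against its markers. All 7 epithelial markers (EPCAM, keratins, claudins and ELF3) lay above the median gene, at log2 levels of 9.87 to 14.45. Of the markers of other cells, 1 of 4 leukocyte genes (LYZ), 1 of 5 fibroblast and endothelial genes (COL1A1) and 1 of 2 red cell genes (HBB) lay above it, and their list medians differed by -0.14, 0.07 and 0.06 with LPS, against 0.01 for the epithelial list. LYZ, at 9.81 to 10.10 on its brightest probe set, reached the lower end of the epithelial range, and its other probe set read 6.95 to 7.28. COL1A1 read 8.56 to 8.69 on its brightest probe set and 4.27 to 4.49 on its dimmest. HBB was close to the median gene (7.25) at 7.40 to 7.59, and its dimmest probe set read 5.38 to 5.63. The leukocyte receptor gene PTPRC, at 4.86 to 5.16, was among the dimmest. The number of arrays limits the precision of every value, and an exact permutation test of 1 gene with 2 arrays against 2 cannot give a p under 0.33.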

How the data were processed

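RNA of AGS cells was measured on 4 single-channel Affymetrix arrays. The deposited table holds log2 expression values per probe set. MAS5 and RMA appear in the submitters' processing notes, with neither role nor version. The values have the form of RMA output (medians of 6.31 to 6.36), which compresses differences of dim probe sets. Background settings and detection calls are not given in the sources used here. No further normalization was applied.

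Probe sets were named through the platform annotation. The 62 controls were left out, and the other 54613 were fitted together with limma 3.58.1 in R 4.3.3. The fit used lmFit and eBayes with a trend on intensity and no covariate, the test was two-sided, and p-values were adjusted by Benjamini-Hochberg over every probe set at a threshold of 0.05. Intervals are 95% intervals of that fit, and SE is its moderated standard error. A gene's brightest probe set has the highest mean over the 4 arrays. The fit was tested on simulated data with independent noise on each array, which did not include the difference between replicate numbers seen here.

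All members were named, and of each pathway list the 2 genes with the largest moderated statistic. The members and lists were chosen with earlier results of these data known. Alternatives were quantile normalization, a filter at the median level, 1 probe set per gene, averaging a gene's probe sets, leaving out probe sets ending in _x_at or _s_at, eBayes without the trend, a replicate block, and leaving out each array. Figures were drawn with matplotlib 3.10.9.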

Additional observations from a re-analysis of the deposited data

How the results depend on the processing

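The counts of probe sets past the adjusted threshold, for all probe sets and for the members, stayed at 0 in each direction under every alternative for which they were counted, which leaves out the averaging of probe sets. SPRY2, SPRY1, SPRY4, DUSP1, DUSP4, DUSP10 and ERRFI1 kept their sign but not always their size. Without LPS replicate 2, ERRFI1 went from -0.0472 to -0.000991, DUSP1 from -0.17 to -0.059 and SPRY4 from 0.0925 to 0.0614. Without untreated replicate 1, SPRY4 was at 0.0316, DUSP1 at -0.0972 and SPRY2 at -0.196 (from -0.3). Without LPS replicate 1, ERRFI1 was at -0.0933 and DUSP1 at -0.281, and without untreated replicate 2 SPRY4 was at 0.153. Averaging probe sets took DUSP1 to -0.0274 and DUSP4 to -0.0228, and without _x_at and _s_at probe sets DUSP4 was at -0.053. The median over member genes was -0.0911. It moved to -0.0341 when each gene's probe sets were averaged, and ran from -0.139 (without untreated replicate 2) to -0.0508 (without LPS replicate 2) when 1 array was left out. Averaging probe sets turned the sign for DUSP6 (0.0242) and PHLDA1 (0.00672). Leaving out 1 array gave -0.171 to 0.073 for DUSP6, -0.164 to 0.00725 for PHLDA1 and -0.108 to 0.0267 for DUSP5, with the sign turned without untreated replicate 1 for DUSP6 and without LPS replicate 2 for the others. The cause was not tested. Without _x_at and _s_at probe sets DUSP1 and SPRY4 had no value. Whether arrays of the same number come from 1 experiment is not stated in the labels. Their deviations from the group means correlated, however (r = 0.542 across probe sets, which are not independent). The first principal component (60.8% of the variance) separated the numbers. The second (23.9%) separated the groups, at -16 and -13.2 for untreated and 19.3 and 9.96 for LPS (replicates 1 and 2), which was not tested. With the replicate block 0 member probe sets passed, and SPRY2 had an adjusted p of 0.685 (limma). When an array is left out, the lone array of its group is assumed to vary like the other group. Probe sets near or below the median level, such as that of DUSP5, may read background.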
